A study of Homo sapiens with 8 samples.

Results

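The genes described here are 30 human genes of ribosome biogenesis, among them XRN2 and DHX15, the partners with which the protein NKRF works in pre-rRNA processing. They were taken as a named list, and all 30 matched a gene among 20052 protein-coding genes of RefSeq. For each gene the question was whether a summit of an NKRF binding peak lay inside the gene or within 10 kb of either of its ends, and where. A peak is a stretch of DNA in which sequenced fragments (tags) pile up in the immunoprecipitated library over the input, and its summit is the point of highest pile-up.

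Chromatin immunoprecipitation and sequencing (ChIP-seq) with an antibody to NKRF was carried out in MDA-MB-231-P3, a strongly metastasising derivative of a triple-negative breast cancer cell line. In 1 condition the cells carried siRNA duplexes targeting a long non-coding RNA, Uc003xsl.1, delivered by lipid transfection (group si-Uc003xsl.1, with 2 NKRF libraries and 2 inputs). In the other they carried control siRNA (group control, with 2 NKRF libraries and 2 inputs). The series title names the RNA as a decoy of NKRF, so the comparison bears on where NKRF sits under the targeting siRNA and under control siRNA. How much Uc003xsl.1 was left is not recorded in these peak lists. Peak lists hold no expression values, so the cell line could not be set against its markers. Nothing in the labels says that replicates were separate cultures.

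Ribosome biogenesis starts in the nucleolus, where RNA polymerase I transcribes the long ribosomal RNA precursor. Small nucleolar RNPs (snoRNPs) modify the precursor, and assembly factors, helicases and nucleases cut it and build the small and the large subunit around it. NKRF was named as a repressor of NF-kB target genes. It is also a nucleolar G-patch protein that in human cells recruits the exonuclease XRN2 and the helicase DHX15 to pre-rRNA.

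FBL, the gene of the rRNA methyltransferase fibrillarin, was the member with a peak over its own promoter. Its promoter is printed with that of DDX31, the gene of a nucleolar helicase outside the 30, where both si-Uc003xsl.1 lists had a peak. Each is the RefSeq sequence (GRCh38.p14) of 250 bases before and 50 bases after the gene start. Capitals mark the E-box CACGTG, a palindrome (its own reverse complement) bound by basic helix-loop-helix factors such as MYC. FBL lies at chr19:39846330-39846629 on the minus strand, with 67.7% GC and 37 CpG, and DDX31 at chr9:132669934-132670233 on the minus strand, with 70.7% GC and 34 CpG.
FBL promoter: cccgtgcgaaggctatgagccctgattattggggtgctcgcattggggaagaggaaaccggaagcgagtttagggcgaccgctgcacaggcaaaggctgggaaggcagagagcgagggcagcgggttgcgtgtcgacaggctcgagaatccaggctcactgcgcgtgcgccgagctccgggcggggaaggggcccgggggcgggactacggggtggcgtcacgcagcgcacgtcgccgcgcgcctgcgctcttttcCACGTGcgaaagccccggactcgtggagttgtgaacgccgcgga
DDX31 promoter: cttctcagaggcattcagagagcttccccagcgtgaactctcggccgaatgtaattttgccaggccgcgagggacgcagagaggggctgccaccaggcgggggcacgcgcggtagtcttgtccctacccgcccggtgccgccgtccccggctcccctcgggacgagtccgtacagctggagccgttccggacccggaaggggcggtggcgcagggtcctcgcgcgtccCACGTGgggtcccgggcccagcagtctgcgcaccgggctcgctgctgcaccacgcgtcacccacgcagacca

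An E-box occurred in nearly as many member genes as lacked it. A promoter sequence was at hand for 26 of them, not for NOP58, BOP1, NOLC1 or RRP12. Of these 26 genes, 12 (46.2%, exact 95% interval 26.6 to 66.6) had at least 1 promoter with CACGTG, against 31 of 136 other ribosome biogenesis genes (22.8%, 16.0 to 30.8) and 1715 of 15816 other protein-coding genes (10.8%, 10.4 to 11.3). Counted by promoter rather than by gene, it was 13 of 32 member promoters (40.6%) and 8.29% of the others. The count by gene was added after the count by promoter had been seen. The intervals cover counting error only, and genes are not replicates.

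The 12 genes held 13 E-boxes, which are shown with up to 12 bases either side to let their surroundings be compared. Positions count from the gene start, with negative numbers before it.
XRN2, chr20:21303291-21303320, plus strand, position -28: ttctccagcgcgCACGTGggaggaagtgct
FBL, chr19:39846356-39846385, minus strand, position 6: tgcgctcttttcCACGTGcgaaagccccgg
NOP10, chr15:34343289-34343318, minus strand, position -170: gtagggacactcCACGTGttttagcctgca
NOP10, chr15:34343130-34343159, minus strand, position -11: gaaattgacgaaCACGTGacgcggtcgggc
GAR1, chr4:109815781-109815810, plus strand, position 31: gggccagaggggCACGTGgcgccggtgagt
NOP2, chr12:6568242-6568268, minus strand, position 35: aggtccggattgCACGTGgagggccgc
NAT10, chr11:34105602-34105631, plus strand, position -15: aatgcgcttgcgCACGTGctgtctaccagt
UTP4, chr16:69132621-69132650, plus strand, position -16: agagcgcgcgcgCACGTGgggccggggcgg
UTP14A, chrX:129905914-129905940, plus strand, position -241: accttgggcCACGTGgaaaccaggggc
UTP20, chr12:101280083-101280112, plus strand, position -10: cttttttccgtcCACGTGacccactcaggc
RRP9, chr3:51941892-51941921, minus strand, position -5: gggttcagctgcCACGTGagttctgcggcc
BYSL, chr6:41921515-41921544, plus strand, position 28: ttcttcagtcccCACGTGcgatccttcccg
PES1, chr22:30591880-30591909, minus strand, position 13: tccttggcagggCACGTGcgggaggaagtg

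Of the 13 E-boxes, 8 began before the gene start, 6 of them within 100 bases, and 5 began after it. Among the members the E-box was present in 3 of 9 members with a peak and a promoter sequence (FBL, NAT10 and PES1) and in 9 of 17 members with a promoter sequence and no peak. Among other protein-coding genes with a summit within 1 kb of a start, 137 of 1053 (13.0%) and 114 of 850 (13.4%) held it in si-Uc003xsl.1 replicates 1 and 2. Of those with a summit within 1 kb of a start in control replicates 1 and 2, it was 4 of 39 (10.3%, exact 95% interval 2.87 to 24.2) and 1 of 16 (6.25%, 0.158 to 30.2), too few genes to set apart from the si-Uc003xsl.1 lists. The kappa B motif, searched by its consensus on both strands, was in 3 of 32 member promoters (9.38%) and in 6.53% of the others. Member promoters had a median of 64.2% GC and 25 CpG, against 62.3% GC and 21 CpG in the others. A match is a run of letters and shows no bound factor.

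**Figure D1:**
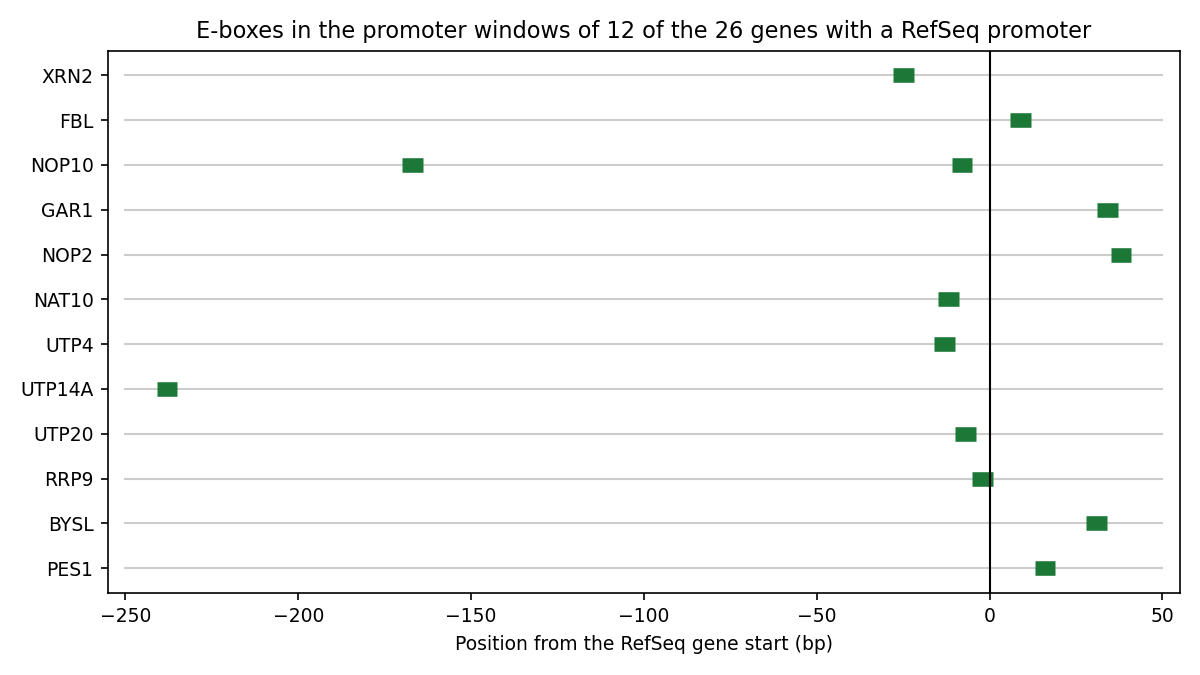
Position of each CACGTG (bases from the gene start, 0 marked by the vertical line) in the promoter windows of the 12 genes that hold one, 1 row per gene. Most lie close to the start, with XRN2 at -28 and RRP9 at -5, while UTP14A at -241 lies farthest out.

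The lists differed in length and in how they were called. They held 7577 and 4463 peaks after si-Uc003xsl.1 (replicates 1 and 2, from 18890698 and 11366267 filtered tags), and 7444 and 902 peaks in controls (from 19335431 and 8250475 filtered tags). Control replicate 2 was called by MACS 2.1.1 at a q-value of 0.05 with 105-bp tags, the other lists by MACS 1.4.2 at a p-value of 1e-04 with 50-bp tags, so replicate and processing cannot be told apart within the controls. The caller's own false discovery rate was 100% for all 7444 peaks of control replicate 1, against medians of 30.75% and 10.96% in si-Uc003xsl.1 replicates 1 and 2. Tags, folds and scores per peak are the authors' values and describe each list alone.

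In no library could the share of the 30 genes with an NKRF peak be told apart from that of other genes. Both si-Uc003xsl.1 lists had a peak at 0 of 30 members and at 6.2% of other genes, and this difference was not tested. After si-Uc003xsl.1, 4 of 30 members had a peak in replicate 1 (13.3%, exact 95% interval 3.76 to 30.7) and 4 of 30 in replicate 2 (13.3%, 3.76 to 30.7). In controls it was 3 of 30 in replicate 1 (10.0%, 2.11 to 26.5) and 0 of 30 in replicate 2 (0%, upper bound 11.6%). The same count over the 20022 other protein-coding genes gave 23.0% and 17.2% after si-Uc003xsl.1, and 11.8% and 2.58% in controls. Each interval holds the share of the other genes in its own library, so with 30 genes a difference from this background was not detectable in any of the 4 lists.

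Members minus other genes came to -9.69 and -3.85 percentage points in si-Uc003xsl.1 replicates 1 and 2, and -1.77 and -2.58 points in control replicates 1 and 2. Against the 16057 other genes within the members' range of lengths, 1418 to 106514 bp, the differences were -5.89 and -1.51 points after si-Uc003xsl.1 and 2.94 and -1.45 points in controls. With a window of 50 kb the sign turned in the si-Uc003xsl.1 lists, where 14 (46.7%) and 10 (33.3%) members had a peak, against 42.0% and 31.3% of other genes. In controls the 50-kb window held 3 (10.0%) and 0 members, against 19.9% and 4.84% of other genes.

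Between the conditions, the share of members with a peak averaged 13.3 ± 0.0% after si-Uc003xsl.1 and 5.0 ± 7.07% in controls (SD, n = 2 each), a difference of 8.33 points. It was 3.33 points without control replicate 2 and 13.3 points without control replicate 1. It was 0 points when only summits inside genes were counted. The other genes moved the same way, at 20.1 ± 4.13% after si-Uc003xsl.1 and 7.17 ± 6.5% in controls (SD, n = 2 each). Their difference of 12.9 points gave p = 0.333 in an exact permutation test (two-sided), which is the lowest value 2 libraries against 2 can reach, above 0.05. Without control replicate 2 the other genes differed by 8.33 points. Such a p reflects library-to-library spread alone, and that spread may have technical sources.

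**Figure D2:**
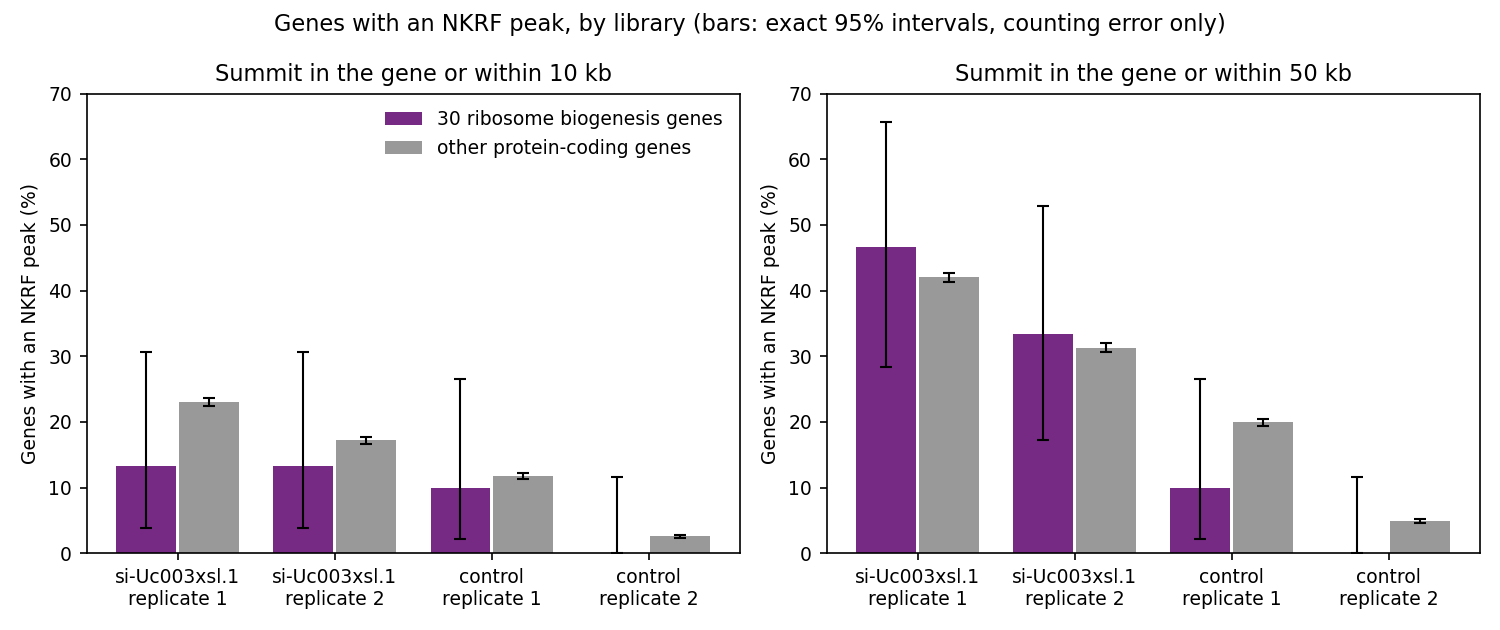
Percent of genes with an NKRF peak in each library, for the 30 members and for the other protein-coding genes, at the window sizes given above each panel. Bars are exact 95% intervals of counting error. At 10 kb the members stand at 13.3%, 13.3%, 10.0% and 0.0%, each with an interval that spans the other genes' share.

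The NKRF partners had 1 peak between them, in control replicate 1, where 11.8% of other genes had one. DHX15, a helicase that works in splicing and in ribosome assembly, had a summit inside the gene in control replicate 1 (chr4:24559713-24559845), 24795 bp from its 5′ end, with 7 tags. Its nearest summits were 41122 bp and 54570 bp away after si-Uc003xsl.1 and 259398 bp away in control replicate 2. XRN2, the nuclease that trims pre-rRNA ends, had none within the window. Its nearest summits lay 506385 bp and 930913 bp away after si-Uc003xsl.1, and 54106 bp and 1286991 bp away in control replicates 1 and 2. NKRF itself, on the list of G-patch proteins, had no peak in any of the 4 lists. Other genes stood at 23.0% and 17.2% after si-Uc003xsl.1 and 11.8% and 2.58% in controls, so a lack of peaks at 1 gene says little.

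RNA polymerase I genes had 2 peaks among 4 genes, both in si-Uc003xsl.1 replicate 1, where 23.0% of other genes had one. POLR1A encodes the largest subunit of the enzyme. Its peak (chr2:86109991-86110272, 282 bp, 14 tags) had the summit 4275 bp outside the 5′ end of POLR1A, inside the neighbouring gene PTCD3 and 3926 bp from the start of that gene. UBTF, the HMG-box factor that keeps ribosomal DNA open for transcription, had a summit inside the gene (chr17:44212562-44212870, 309 bp, 15 tags), 7674 bp from the 3′ end. With a -log10 p of 4.0, close to the calling threshold, it ranked at percentile 0.845 of its list. POLR1B, a catalytic-core subunit, came no closer than 46784 bp in any list, and RRN3, which brings the polymerase to the promoter, no closer than 914182 bp.

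Of the nucleolar chaperones and scaffolds, NPM1 and NCL had a peak and NOLC1 had none. NPM1 (nucleophosmin) had its peak in si-Uc003xsl.1 replicate 2 (chr5:171419425-171419954, 530 bp, 23 tags). That summit lay 8753 bp beyond the 3′ end of NPM1, inside FGF18 and 6 bp from the start of FGF18, so it was a peak at the start of the neighbour. NCL (nucleolin) had a summit inside the gene in control replicate 1 (chr2:231459431-231459563, 133 bp, 6 tags), 5015 bp from the 5′ end and 899 bp from SNORD82, a small nucleolar RNA gene hosted by NCL. NOLC1, a chaperone of snoRNPs, had its nearest summit at 24824 bp, in si-Uc003xsl.1 replicate 1.

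The box C/D snoRNPs, which methylate rRNA, held the member peak closest to a gene start. At FBL, si-Uc003xsl.1 replicate 1 had a peak of 557 bp with 33 tags (chr19:39846020-39846576) and a summit 49 bp before the gene start. It covered 247 of the 300 promoter bases printed above, E-box included, and ranked at percentile 88.3 of its list by -log10 p (5.52). The nearest end of another gene was that of DYRK1B, 12266 bp away. In the other 3 lists the nearest summit to FBL lay 294487 bp away (si-Uc003xsl.1 replicate 2), 276854 bp away (control replicate 1) and 2033088 bp away (control replicate 2). NOP58, a core protein of the same particle, had a peak of 164 bp with 9 tags in si-Uc003xsl.1 replicate 1 (chr2:202307642-202307805), 4037 bp outside the gene, at percentile 91.0. The paralogous core protein NOP56 had no summit nearer than 214933 bp.

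None of the 4 box H/ACA genes, whose products convert uridine to pseudouridine in rRNA, had a peak within the window. Other genes stood at 23.0% and 17.2% after si-Uc003xsl.1 and 11.8% and 2.58% in controls, so 0 of 4 is near the background. Of the 4 genes, NHP2 came closest, at 12086 bp in si-Uc003xsl.1 replicate 1. GAR1 had its nearest summit at 59011 bp in control replicate 1, NOP10 at 285359 bp in control replicate 2 and the pseudouridine synthase gene DKC1 at 326441 bp in si-Uc003xsl.1 replicate 2. Of the other rRNA-modifying enzymes, the acetyltransferase gene NAT10 had a summit inside the gene in control replicate 1 (chr11:34115466-34115597, 132 bp, 7 tags), 9921 bp from its 5′ end. The methyltransferase gene NOP2 had none nearer than 86434 bp.

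The 8 small-subunit genes had no peak in any list. With so few genes and other genes at 23.0% and 17.2% after si-Uc003xsl.1 and 11.8% and 2.58% in controls, a count of 0 is near the background. The nearest summits to UTP3 (15121 bp), RRP9 (17336 bp), RRP12 (21662 bp), UTP4 (25791 bp) and NOB1 (45621 bp) all lay in si-Uc003xsl.1 lists. Other genes lean the same way, with 42.0% and 31.3% having a peak within 50 kb after si-Uc003xsl.1 and 19.9% and 4.84% in controls. UTP3, UTP4, UTP14A, UTP20 and RRP9 belong to the small subunit processome. RRP12 and BYSL act in later maturation and export, and NOB1 is the endonuclease of the last cut to the small-subunit rRNA. BYSL, UTP14A and UTP20 had no summit nearer than 116521 bp, 130515 bp and 234159 bp.

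Large-subunit genes had 3 peaks among 4 genes, all in si-Uc003xsl.1 replicate 2, where 17.2% of other genes and 4 of 30 members had one. With so few genes per role, no role was tested against that share. BOP1 and PES1 encode 2 proteins of the PeBoW complex, which acts in large-subunit rRNA processing, and RRP1 is a nucleolar factor of the same subunit. BOP1 had a summit inside the gene (chr8:144277320-144277833, 514 bp, 23 tags), 13966 bp from its nearest end and 8991 bp from an end of SCX. RRP1 had one inside the gene (chr21:43804346-43804484, 139 bp, 7 tags), 884 bp from the 3′ end. The summit at PES1 (chr22:30607354-30607505, 152 bp, 6 tags) lay 430 bp outside the 5′ end of the annotated gene. It was inside TCN2, 269 bp from the nearer boundary (start or end) of TCN2. It was 15533 bp from the PES1 start whose promoter carries the E-box. WDR12, the remaining PeBoW gene, came no closer than 85163 bp, in control replicate 2.

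**Figure D3:**
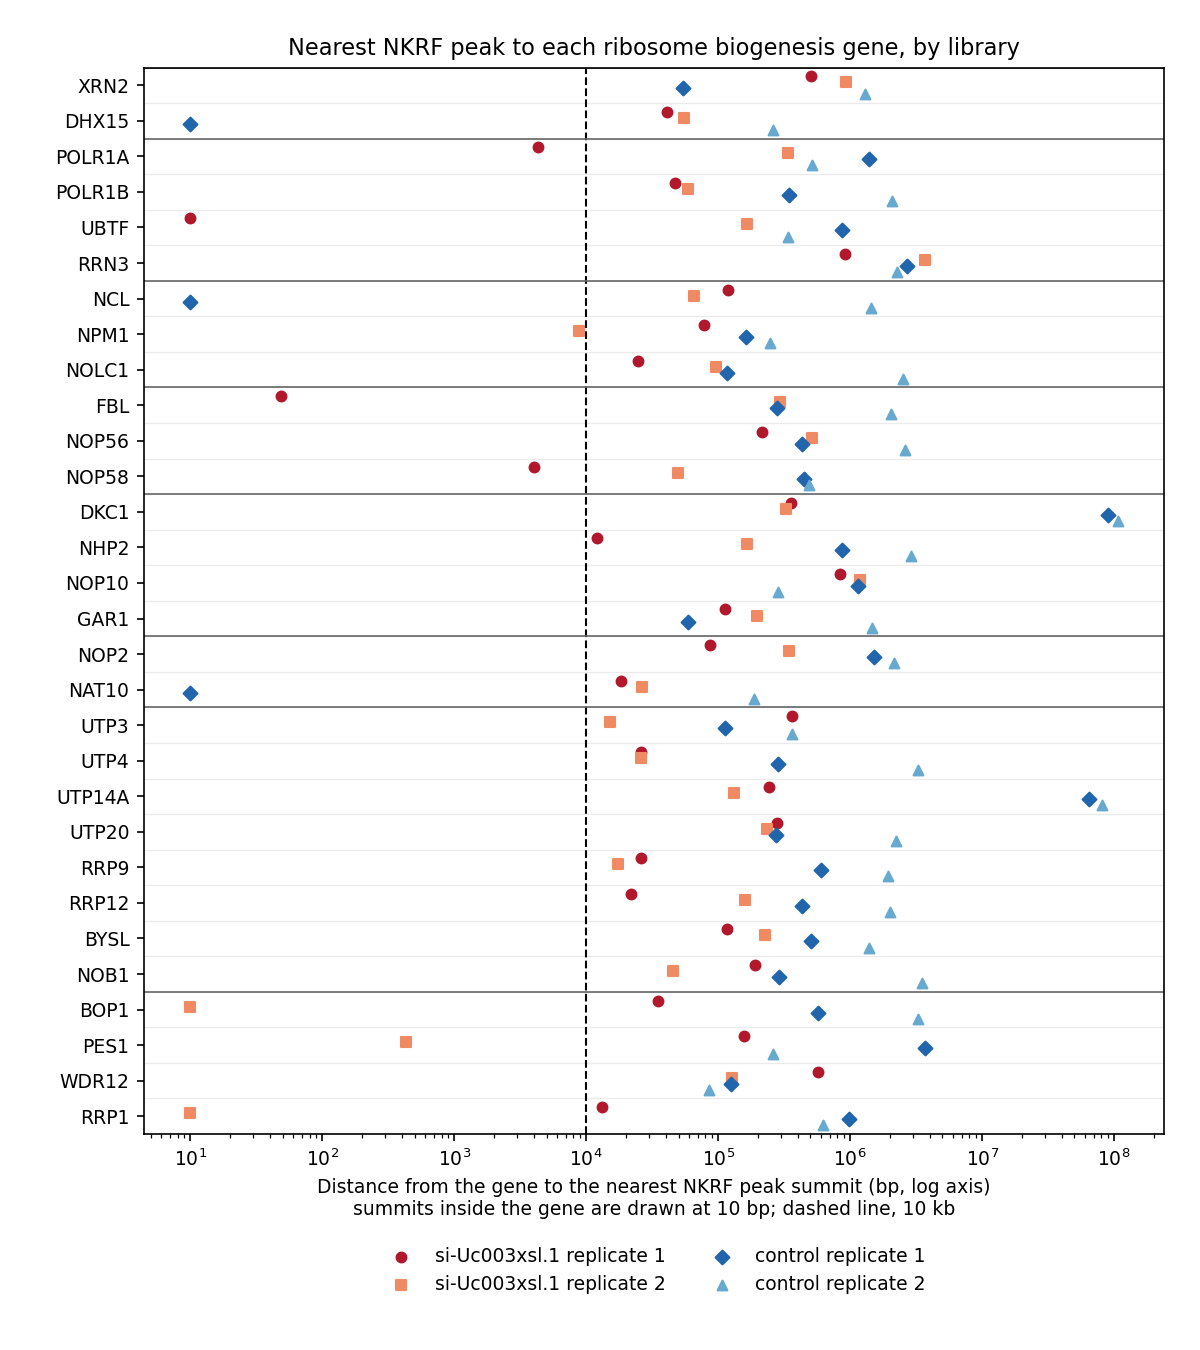
Distance (bp, log axis) between each of the 30 genes and the nearest NKRF summit in each of the 4 libraries, with genes grouped by role. Distances of 10 bp or less, including summits inside the gene, are drawn at 10 bp. The 11 genes with a point within 10 kb each have it in 1 library, and the small-subunit and box H/ACA genes have none.

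In all, 11 members had a peak in 1 list and 19 in none, and no member had a peak in more than 1 list. Of the 20022 other genes, 29.5% had a peak in 1 list and 59.2% in none, 9.01% in 2 lists, 1.92% in 3 and 0.315% in 4. Either si-Uc003xsl.1 list had a peak at 8 of 30 members (26.7%) and at 34.0% of other genes. Both had one at 0 of 30 members and at 1241 (6.2%) of other genes. As no member had a peak in more than 1 list, member peaks of different libraries had no occasion to overlap, and their lack of overlap adds nothing.

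The peaks at the members were small to moderate calls. The 8 member peaks of the si-Uc003xsl.1 lists were 139 to 557 bp long with 6 to 33 tags, and the 3 of control replicate 1 were 132 to 133 bp long with 6 to 7 tags. The smallest count in each of these lists is 6 tags. The medians of the whole lists were 176 bp and 7 tags (si-Uc003xsl.1 replicate 1), 203 bp and 8 tags (si-Uc003xsl.1 replicate 2) and 134 bp and 6 tags (control replicate 1). FBL, NPM1 and BOP1 had peaks of 557, 530 and 514 bp, above the median of their lists, as were UBTF (309 bp) and POLR1A (282 bp). Length did not mean a strong call, as the NPM1 peak had a -log10 p of 4.01, at percentile 0.583 of its list. The control peaks were close to the median length. No member peak reached a -log10 p of 6. The caller's false discovery rate was 10.52% to 31.39% at the member peaks after si-Uc003xsl.1 and 100% at those of the control.

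By position, all 3 control peaks lay inside the member, none within 1 kb of its ends. After si-Uc003xsl.1, 3 lay inside and 5 outside the member, 3 within 1 kb of a member end, and 4 were closer to an end of another gene than to the member. Within 1 kb of a start in the promoter table, a measure added after the data had been seen, FBL was the only one of 26 members in any list. The other genes stood at 6.66% and 5.37% in si-Uc003xsl.1 replicates 1 and 2 and at 0.247% and 0.101% in control replicates 1 and 2. With 11 peaks, no test of position was made.

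**Figure D4:**
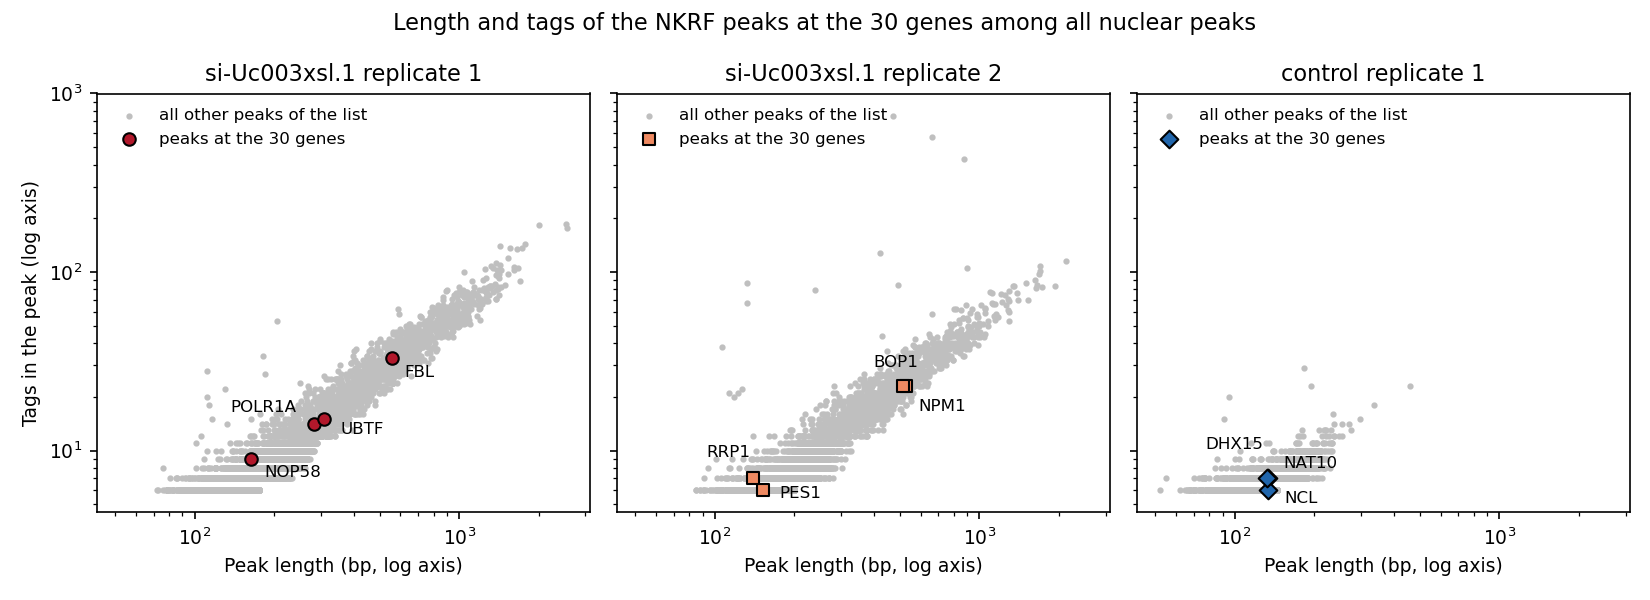
Length (bp, log axis) and tags (log axis) of every NKRF peak outside mitochondrial DNA in the 3 lists that report tags, with the peaks at the 30 genes named. FBL, with 557 bp and 33 tags, is the largest member peak, and the 3 peaks of control replicate 1 sit at 132 to 133 bp.

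The outermost peak inside the 10-kb window was that of NPM1 at 8.75 kb, with POLR1A at 4.28 kb next, and the members without a peak that came nearest were NHP2 at 12.1 kb, UTP3 at 15.1 kb and RRP9 at 17.3 kb, all in si-Uc003xsl.1 lists. The median distance to the nearest summit was 82.5 kb and 129.0 kb for members after si-Uc003xsl.1, against 73.3 kb and 132.0 kb for other genes. In controls it was 433.0 kb and 1700.0 kb for members, against 280.0 kb and 1320.0 kb for other genes. Members had a median length of 23.7 kb, close to the 24.1 kb of other genes. The 11 members with a peak had a median of 29.4 kb and the 19 without 14.8 kb, and none of the 6 members under 10 kb had one. Other genes under 10 kb had a peak in 13.3% and 10.5% of cases after si-Uc003xsl.1 and in 2.4% and 0.509% in controls, so 0 of 6 is near the background. Of the 30 genes, 5 host small nucleolar RNA genes, 2 of them with a peak and 3 without.

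Of a further 158 ribosome biogenesis genes in 7 lists, a larger share had a peak in the si-Uc003xsl.1 libraries than in the controls. Peaks lay at 37 (23.4%, exact 95% interval 17.1 to 30.8) and 24 (15.2%, 9.98 to 21.8) of them in si-Uc003xsl.1 replicates 1 and 2, and at 10 (6.33%, 3.08 to 11.3) and 3 (1.9%, 0.393 to 5.45) in control replicates 1 and 2. Other protein-coding genes stood at 23.0% and 17.2% after si-Uc003xsl.1, and at 11.8% and 2.58% in controls. These shares fall inside the intervals of the 158 genes in both si-Uc003xsl.1 libraries and in control replicate 2, and just above the interval in control replicate 1. By list, the 41 large-subunit assembly genes had 11 and 6 with a peak after si-Uc003xsl.1 and 1 and 1 in controls. The 39 small-subunit genes had 6 and 7 after si-Uc003xsl.1 and 2 and 0 in controls, beside 0 of the 8 small-subunit members in each list, a difference that was not tested. The 17 genes of RNA polymerase I and its factors had 5 and 4 after si-Uc003xsl.1 and 1 and 0 in controls, and the 16 rRNA helicases 5 and 4 against 1 and 1. The 10 snoRNP assembly genes had 4 and 0 against 3 and 0, the 21 G-patch and XRN2-binding proteins 4 and 2 against 1 and 0, and the 14 exosome genes 2 and 1 against 1 and 1.

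Among these 158 genes, 97 had no peak, 49 a peak in 1 list, 11 in 2 lists and 1, the GTPase gene LSG1, in 3. Both si-Uc003xsl.1 lists had a peak at 8 of them, namely LSG1, DDX31, DDX54, DHX33, PDCD11, POLR1C, POLR2L and RIOK1. That is 5.06% of the 158, near the 6.2% of other protein-coding genes. At 6 of these the peaks of the replicates lay apart. At RIOK1 they met in a single base, and at DDX31 they coincided. The remaining genes in 2 lists, DIS3, GPATCH2, NAF1 and TAF1A, each had a peak in si-Uc003xsl.1 replicate 1 and in a control list. The third list of LSG1 was control replicate 2.

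At DDX31 the peak of si-Uc003xsl.1 replicate 1 (chr9:132669682-132670306, 625 bp, 38 tags) had its summit 16 bp from the gene start, and that of replicate 2 (chr9:132669674-132670312, 639 bp, 31 tags) 89 bp from it. The 2 peaks overlapped by 625 bp and covered the whole promoter printed above, E-box included. The same stretch adjoins GTF3C4, an end of which lay 68 bp and 141 bp from the summits. The peak therefore cannot be assigned to 1 of the 2 genes. In replicate 1, 2 further peaks of 6 tags lay inside DDX31, 31843 bp and 30649 bp from the start. Neither control list had a peak at DDX31.

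The strongest peaks near these genes often lay at a neighbour. By -log10 p, the leading genes were DHX33, MDN1 and RPF1 in si-Uc003xsl.1 replicate 1 and PPAN, POLR2K and POLR1C in replicate 2. The DHX33 peak (32 tags, -log10 p 10.7) was 277 bp from an end of C1QBP, the MDN1 peak (15 tags, 8.01) 46 bp from the start of LYRM2 and the RPF1 peak (45 tags, 7.4) 353 bp from SPATA1. The PPAN peak (27 tags, 11.6) was 9632 bp outside PPAN, and the POLR1C peak of replicate 2 (39 tags, 7.4) was 308 bp from LRRC73. The POLR2K peak (38 tags, 9.65) had its summit 5004 bp outside POLR2K and inside FBXO43. In control replicate 1 the leaders were DDX10 (9 tags), MTREX (8 tags) and ZNHIT6 (10 tags). Control replicate 2 had a peak at only 3 of the 158 genes (1.9%, against 2.58% of other protein-coding genes). They were DIS3 (pileup 8), LSG1 (pileup 7) and DDX52 (pileup 6), at percentiles 46.0, 23.8 and 4.16 of that list by -log10 p. The header of that list calls the pileup scaled to sequencing depth, but its values are whole numbers, so its scale is uncertain. The DIS3 summit, in a gene for an exosome nuclease, lay 299 bp inside the 5′ end.

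**Figure D5:**
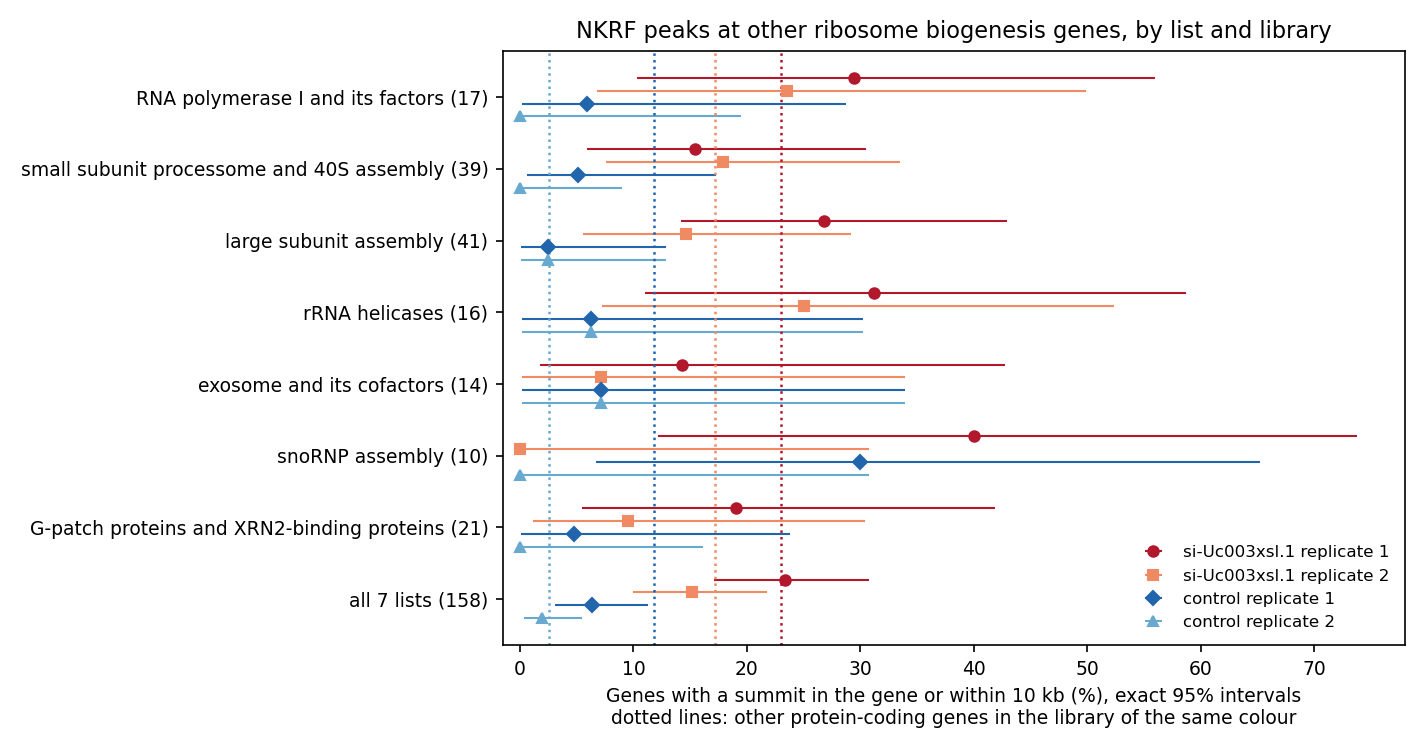
Percent of genes with a summit inside or within 10 kb, for the 7 lists of other ribosome biogenesis genes and each library, with exact 95% intervals and, dotted, the other protein-coding genes of the same library. The intervals are wide, for example 10.3 to 56.0% around the 5 of 17 genes of RNA polymerase I in si-Uc003xsl.1 replicate 1.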

How the data were processed

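The submitters' processing notes name Bowtie2, CASAVA 1.4 and the build GRCh38.p11. Peaks were called per library against 1 input, with 1 tag kept per position, per the file headers. The counts of tags per peak were deposited without scaling. The deposited score is minus 10 log10 p, per the file headers, and was divided to -log10 p here. For control replicate 2 the authors deposited the pileup signal of each summit and -log10 of p and of q; the header calls the pileup scaled to depth, yet all values are whole numbers, so its scale is uncertain. The fold ratio over input and the false discovery rate in percent come from the authors' caller, per the file headers.

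Summits were assigned to the 20052 protein-coding genes of RefSeq (GRCh38.p14; primary chromosomes keep their coordinates between patches) with Python 3.11.15, pandas 2.3.3 and scipy 1.17.1, after the assignment was tested on simulated data. The RefSeq table used gives 1 span per gene, without exons, so positions are relative to gene ends. Intervals are Clopper-Pearson. Signal under the calling threshold is invisible in a peak list. The 30 members and the 158 other genes were chosen with earlier results of these data known. Named genes are all members, other ribosome biogenesis genes in at least 2 of the 4 lists, and the 3 with the highest -log10 p per list. Alternatives were windows of 1 and 50 kb, gene bodies, any peak base, -log10 p of at least 6, the strongest 902 peaks per list, other genes of like length, leaving out each library and a replicate block. Replicate numbers were not shown to pair the samples. The inputs were not analysed here beyond their totals in the headers.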

Additional observations from a re-analysis of the deposited data

Results flagged for a closer look

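The scaffolds chrUn_GL000220v1 and chr22_KI270733v1_random are known from general knowledge to carry copies of the rRNA genes; the gene table used here does not cover them. Their peaks lay outside the assignment to protein-coding genes, and were looked at after the files had been seen. There were 3 in si-Uc003xsl.1 replicate 1 and 5 in si-Uc003xsl.1 replicate 2, against 1 in control replicate 1 and 0 in control replicate 2, whose list holds no scaffold peak at all. Over all scaffolds there were 40 and 26 peaks in the si-Uc003xsl.1 lists, against 24 and 0 in the control lists. Near the rRNA genes annotated on chromosome 21 (RNA45SN1, RNA45SN2 and RNA45SN3), no list had a summit closer than 593330 bp. Of the peaks on the scaffolds with rRNA genes, the largest lay on chr22_KI270733v1_random in si-Uc003xsl.1 replicate 2, with 128 tags in 422 bp (-log10 p 13.9). The peak of control replicate 1 (20 tags) overlapped one of si-Uc003xsl.1 replicate 1 (18 tags). These repeats occur in many copies and the handling of reads with several matches is not given in the sources used here; its part in the counts was not tested.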

How the results depend on the processing

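The difference between si-Uc003xsl.1 and control in the share of members with a peak (8.33 points) was 3.33 points with 1 kb, 35.0 with 50 kb, 0 in gene bodies, 0 at -log10 p of at least 6, 3.33 with equal lists and 1.92 near promoter-table starts; leaving out 1 library gave 3.33 to 13.3. The cause was not tested. For other genes (12.9) it stayed positive, between 1.03 (exact permutation p = 0.667, -log10 p of at least 6) and 24.3 (50 kb). With the replicate block the differences were 8.33 and 12.9 (exact sign-flip p = 0.5 for the other genes, the smallest 2 pairs allow). Same-numbered libraries correlated at r = 0.041 over genes, so the block rests on numbers only. Members minus other genes ranged over -12.3 to 4.64 and -5.37 to 2.01 points in si-Uc003xsl.1 replicates 1 and 2, and over -9.87 to 2.94 and -4.84 to -0.101 in control replicates 1 and 2, with -9.87 and -4.84 at 50 kb. With equal lists it came to 2.32 and -4.09 points after si-Uc003xsl.1 and -1.99 and -2.58 in controls. In control replicate 1 it was 0.0959 points at 1 kb and 0.301 in gene bodies. Of the 158 other ribosome biogenesis genes, 71 and 54 (44.9% and 34.2%) had a peak within 50 kb in the si-Uc003xsl.1 lists. In the controls it was 24 and 6 (15.2% and 3.8%). Other protein-coding genes stood at 42.0% and 31.3% against 19.9% and 4.84%, a contrast in the same direction. Of the 158, si-Uc003xsl.1 replicate 2 had 12 within 1 kb (7.59%), against 13.1% of other genes. At 1 kb the 158 were also lower in si-Uc003xsl.1 replicate 1 (16.5% against 17.8%). The same held in control replicates 1 (5.7% against 9.9%) and 2 (1.27% against 2.12%). These differences were not tested. The 902 peaks of control replicate 2 limit what its list can show.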
